A study of Mus musculus with 12 samples.

Results

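Aminoacyl-tRNA synthetase genes were followed in sorted splenic regulatory T cells (Treg) of mice with and without a conditional knockout of Cd83. The family was taken as 34 listed genes, 20 for the cytosolic enzymes and 14 for the mitochondrial enzymes, and every array probe carrying one of these names in the scanner files was used. A gene was tested if the scanner software marked one of its probes as well above background in each of the 3 arrays of any group. This held for 33 of the 34 genes (20 of 20 cytosolic and 13 of 14 mitochondrial), out of 18545 genes tested in all, and left out Nars2. Cells were measured on 12 one-colour arrays in 4 groups of 3: KO at 3 h, KO at 0 h, WT at 3 h and WT at 0 h. KO stands for the genotype given as CD83cKO and WT for CD83 WT, 3 h for cells activated for 3 h with antibodies against CD3 and CD28, and 0 h for non-activated cells. All mice were female and C57BL/6. WT mice were 9 weeks old. In KO, replicates 1 and 2 of each time point came from mice of 10 weeks and replicate 3 from mice of 21 weeks. No Cre driver is named, and 6 mice are listed for the 12 arrays without saying which arrays share a mouse, so p-values measure the spread between these arrays.

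Each synthetase attaches an amino acid to its tRNA, the step that supplies ribosomes with charged tRNA. Animal cells keep separate sets for the cytosol and the mitochondrion, both encoded in the nucleus, and the mouse symbols of the mitochondrial set end in 2. The genes Gars (glycine) and Kars (lysine) serve both compartments. Several cytosolic enzymes are held in a multisynthetase complex. Many cytosolic synthetase genes are known targets of ATF4, a transcription factor made when amino acids run short or the endoplasmic reticulum is stressed, and plasma cells, which secrete antibody, run a related secretory stress programme. T cells raise protein synthesis after they are activated through CD3 and CD28.

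Values below are log2 signals, each array shifted by its own 75th percentile, so a probe's value can be compared between arrays but not with another probe's. Cd83 checked the labels. It measured 1.06, 1.07 and 1.93 in KO at 3 h and 4.22, 3.70 and 3.66 in WT at 3 h, and 0.75, 0.30 and 0.24 in KO at 0 h and 2.36, 2.17 and 2.39 in WT at 0 h. KO lay below WT on every array of a time point (limma adjusted p = 0.00228 at 3 h and 0.00887 at 0 h). Among the Treg markers, Il2ra and Ctla4 were well above background in all 4 groups, whereas the single Foxp3 probe was well above background on 3 KO arrays at each time point and on 0 of the 6 WT arrays. All KO arrays lay on 1 slide, WT at 0 h on a second and WT at 3 h on another, so slide cannot be told apart from genotype, nor from activation in WT; KO at 3 h and KO at 0 h shared their slide.

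Replicate 3 of KO at either time, from 21-week mice, differed widely from all other arrays, and results that rest on these 2 arrays are given with and without them. Over 7 tested plasma cell markers the summed level reached 286 (3 h) and 205 (0 h) there, with 7.52 to 20.7 for the 4 arrays of 10-week KO mice and 4.91 to 9.60 for WT. The summed level of 10 T cell markers was 24.5 (3 h) and 44.4 (0 h) for 21-week KO, 104 to 131 for 10-week KO and 103 to 174 for WT. The summed level of 8 Treg markers was 4.29 and 3.26 for 21-week KO, 20.0 to 36.3 for 10-week KO and 28.1 to 40.4 for WT. Foxp3, alone among these 8, was higher on the 21-week KO arrays than on the 10-week KO arrays. Its log2 signal was -3.15 against -5.84 and -4.09 at 3 h, and -2.86 against -6.26 and -6.03 at 0 h. B cell markers summed to 47.4 and 32.9 for 21-week KO, 3.22 to 13.7 for 10-week KO and 2.17 to 7.36 for WT. In such bulk samples fewer cells of a type and less RNA per cell cannot be told apart.

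WT at 3 h against WT at 0 h showed how the family moved with activation. In the fit on all 12 arrays, with the brightest probe of each gene, a few cytosolic synthetase genes moved in either direction and the mitochondrial genes that were called fell. Among 20 cytosolic genes 3 rose and 2 fell, beside 13.3% of all genes that rose and 16.6% that fell at a limma adjusted p under 0.05 (29.9% in either direction). The 3 rises include Eprs, whose probe passed the filter only through WT at 3 h. Among 13 mitochondrial genes 0 rose and 6 fell. The median log2 difference was 0.07 for the cytosolic genes, -0.62 for the mitochondrial genes and -0.14 for all genes. The share of cytosolic genes called thus lay near the background, and that of mitochondrial falls above it. The arrays of the time points did not overlap for 9 cytosolic genes that were higher and 7 that were lower at 3 h, and for 3 and 8 mitochondrial genes, beside 29.0% of all genes higher and 39.5% lower.

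Eprs encodes the enzyme that joins the glutamyl and prolyl activities in a single chain of the multisynthetase complex. Its probe measured -3.83, -4.31 and -4.34 in WT at 3 h and -7.19, -7.11 and -7.94 in WT at 0 h, where it was well above background on 0 of 3 arrays. The groups did not overlap, and the rise was at least 8.64-fold (adjusted p = 0.00383). The probe passed the filter only through WT at 3 h, the group where it was high, so it entered the test by way of this difference, and its call and p support nothing about the family. The probe lies on chromosome 1 from 187252093 to 187252152 (mm9, as all probe positions here). Cars, which charges the cysteine tRNA, measured 2.04, 2.09 and 1.99 in WT at 3 h and 0.76, 0.65 and 0.50 in WT at 0 h. It rose by 1.40 ± 0.389 on the log2 scale (SE, n = 3 arrays each; adjusted p = 0.0224; chromosome 7, 150743615 to 150743674). Hars, the histidyl enzyme, measured -0.61, -0.65 and -0.75 in WT at 3 h and -1.24, -1.29 and -1.29 in WT at 0 h. Every 3 h array lay above every 0 h array for both genes, and Hars rose by 0.60 ± 0.164 (adjusted p = 0.0212; chromosome 18, 36926985 to 36927794).

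Farsb, the beta subunit of the phenylalanyl enzyme, measured -1.99, -2.00 and -2.02 in WT at 3 h and -0.88, -0.73 and -0.67 in WT at 0 h. It fell by 1.24 (SE 0.250, adjusted p = 0.00527; chromosome 1, 78440318 to 78451340). The alpha subunit of the same enzyme, Farsa, differed by 0.02 ± 0.125 with its brightest probe (adjusted p = 0.938). Its other tested probes differed by 0.63 ± 0.215 (limma adjusted p = 0.0505 over all probes) and 0.20, so the subunit genes were not called together. Vars, the valyl enzyme, measured -1.45, -1.25 and -1.30 in WT at 3 h and 0.25, 0.21 and 0.19 in WT at 0 h. It had the largest cytosolic fall, -1.55 ± 0.429 (adjusted p = 0.022; chromosome 17, 35152339 to 35152398).

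In the mitochondrial set the fall was largest for Rars2, the arginyl enzyme, which measured -2.44, -2.34 and -2.32 in WT at 3 h and -0.74, -0.78 and -0.75 in WT at 0 h. The log2 difference was -1.60 ± 0.281 (adjusted p = 0.00275; chromosome 4, 34607264 to 34607323). Ears2, the mitochondrial glutamyl enzyme, measured -3.65, -3.57 and -3.57 in WT at 3 h and -2.44, -2.37 and -2.29 in WT at 0 h (difference -1.23 ± 0.174, adjusted p = 0.000953; chromosome 7, 129182565 to 129182624). For both genes the arrays of one time point differed by far less than the time points did. Fars2, the phenylalanyl enzyme, measured -0.55, -0.67 and -0.62 in WT at 3 h and 0.56, 0.45 and 0.48 in WT at 0 h (difference -1.11 ± 0.271, adjusted p = 0.0128; chromosome 13, 36629402 to 36629461). Lars2, the leucyl enzyme, measured -2.64, -2.81 and -2.61 in WT at 3 h and -1.56, -1.55 and -1.68 in WT at 0 h (difference -1.09 ± 0.179, adjusted p = 0.00206; chromosome 9, 123371457 to 123371516). The remaining falls were those of Pars2 (prolyl) by 0.86 and Cars2 (cysteinyl) by 0.82 on the log2 scale, and the 7 mitochondrial genes not called ran from -0.62 (Wars2) to 0.35 (Iars2).

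**Figure D1:**
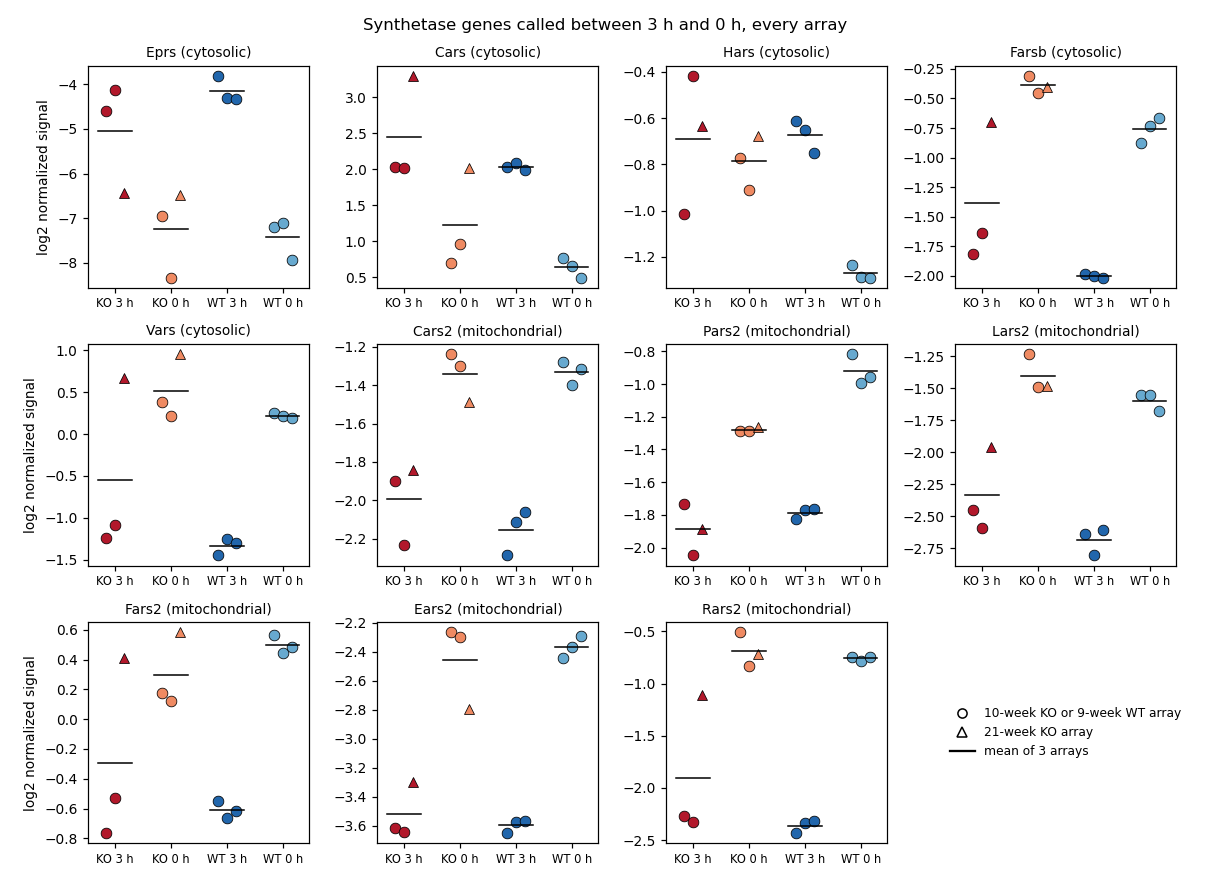
Log2 normalized signal (vertical axes, each gene on its own scale) of the 11 synthetase genes called between 3 h and 0 h, on every array of KO at 3 h, KO at 0 h, WT at 3 h and WT at 0 h. Circles are single arrays, triangles the 21-week KO arrays and bars the means of 3 arrays. In WT the 3 h and 0 h arrays are separate for all 11 genes. The 21-week triangles at 3 h lie over 1 away from the mean of the other KO arrays at 3 h for Eprs, Cars, Vars, Farsb, Fars2 and Rars2.

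More of the cytosolic set was called once the spread no longer included the 21-week arrays, which enter the shared estimate of error although they are KO. Without these arrays 8 cytosolic genes rose, Eprs among them, and 5 fell in WT (all genes: 24.2% rose, 31.6% fell), and 1 mitochondrial gene rose and 7 fell. All 11 genes called with all arrays were among these 21. The added cytosolic rises were Aars (0.82 ± 0.120), Nars (0.45), Iars (0.35), Tars (0.27) and Gars (0.26), which charge the tRNAs of alanine, asparagine, isoleucine, threonine and glycine. The added falls were Wars (tryptophan; -1.02 ± 0.095), Dars (aspartate; -0.57) and Sars (serine; -0.28). The largest added change in the mitochondrial set was that of Sars2 (-0.33), and Aars2 was the gene that rose (0.28 ± 0.0947, adjusted p = 0.034). By contrast, leaving out any 1 of the 6 WT arrays ended the calls of Cars, Hars and Vars (largest limma adjusted p = 0.0721, 0.0727 and 0.0685). Farsb, Rars2, Ears2, Fars2 and Lars2 stayed called in every alternative run for them. Eprs is left out of this list, since its probe passed the filter only through the group where it was high.

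KO at 3 h against KO at 0 h asked the same in the knockout, within 1 slide. Eprs rose and Farsb fell among the 20 cytosolic genes, and 5 of 13 mitochondrial genes fell with 0 rises, beside 7.36% of all genes that rose and 9.88% that fell (17.2% in either direction). Without overlap, 2 cytosolic genes were higher and 2 lower and 6 mitochondrial genes were lower, beside 10.8% of all genes higher and 13.6% lower. The medians were 0.16 (cytosolic), -0.58 (mitochondrial) and -0.05 (all genes). All 7 genes called in KO, Eprs among them, were called in the same direction in WT, where they were 7 of 11 calls. Over all genes 17.2% were called in KO and 29.9% in WT. The calls they shared were not counted, so the overlap of the 7 is a description only.

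Eprs measured -4.59, -4.14 and -6.44 in KO at 3 h and -6.94, -8.33 and -6.48 in KO at 0 h, a fitted difference of 2.19 ± 0.612 (adjusted p = 0.0357). Its probe was well above background on 2 of the 3 arrays of KO at 3 h and 1 of the 3 of KO at 0 h, so the size of this difference is uncertain. The 21-week array at 3 h, -6.44, barely exceeded the highest 0 h array. Farsb measured -1.82, -1.64 and -0.70 in KO at 3 h and -0.31, -0.45 and -0.40 in KO at 0 h, and fell by 1.00 (SE 0.250, adjusted p = 0.0237). The Eprs call held in 3 of the 12 fits that left out 1 array (largest adjusted p = 0.122), and the Farsb call ended without any 1 of the 4 arrays from 10-week KO mice (largest adjusted p = 0.0841). Rars2 measured -2.26, -2.33 and -1.11 in KO at 3 h and -0.51, -0.83 and -0.71 in KO at 0 h (difference -1.22 ± 0.281, adjusted p = 0.0165). Ears2 measured -3.62, -3.64 and -3.30 in KO at 3 h and -2.26, -2.30 and -2.80 in KO at 0 h (difference -1.07 ± 0.174, adjusted p = 0.00388). Every 3 h array lay below every 0 h array for these genes, as it did for Lars2 (-0.93 ± 0.179, adjusted p = 0.0077). Pars2 fell by 0.61 (SE 0.130, adjusted p = 0.0118), and Cars2 by 0.65 (SE 0.151, adjusted p = 0.0167). The Rars2 call ended without replicate 1 of either KO time point or replicate 2 at 3 h (largest adjusted p = 0.0618), and the Cars2 call without replicate 2 of either (0.0593).

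In a fit on the 6 KO arrays alone, 0 of 33 synthetase genes were called, with 105 of 18545 genes called (0.566%) and 8 of the 33 at an unadjusted p under 0.05 in limma. Without the 21-week arrays, 4 cytosolic genes rose and 4 fell and 6 mitochondrial genes fell in KO (all genes: 20.2% rose, 26.0% fell), and the cytosolic median was -0.04. The rises were those of Cars (1.20 ± 0.129), Aars (0.70 ± 0.146), Gars (0.35 ± 0.106) and Eprs, whose dim probe leaves the size uncertain. The falls were those of Vars (-1.46), Farsb (-1.35), Wars (-0.50) and Dars (-0.45). All 14 of these calls, Eprs among them, were shared, in direction, with the 21 made in WT without the same arrays. Of all genes 46.2% were called in KO and 55.8% in WT there. The calls they shared were not counted, so this overlap shows nothing particular to the synthetase genes. Wars measured 0.74, 0.62 and 3.30 in KO at 3 h and 1.23, 1.12 and 1.56 in KO at 0 h, so its difference was 0.25 ± 0.572 with all arrays (adjusted p = 0.813) and -0.50 ± 0.116 without the 21-week arrays (adjusted p = 0.00942).

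**Figure D2:**
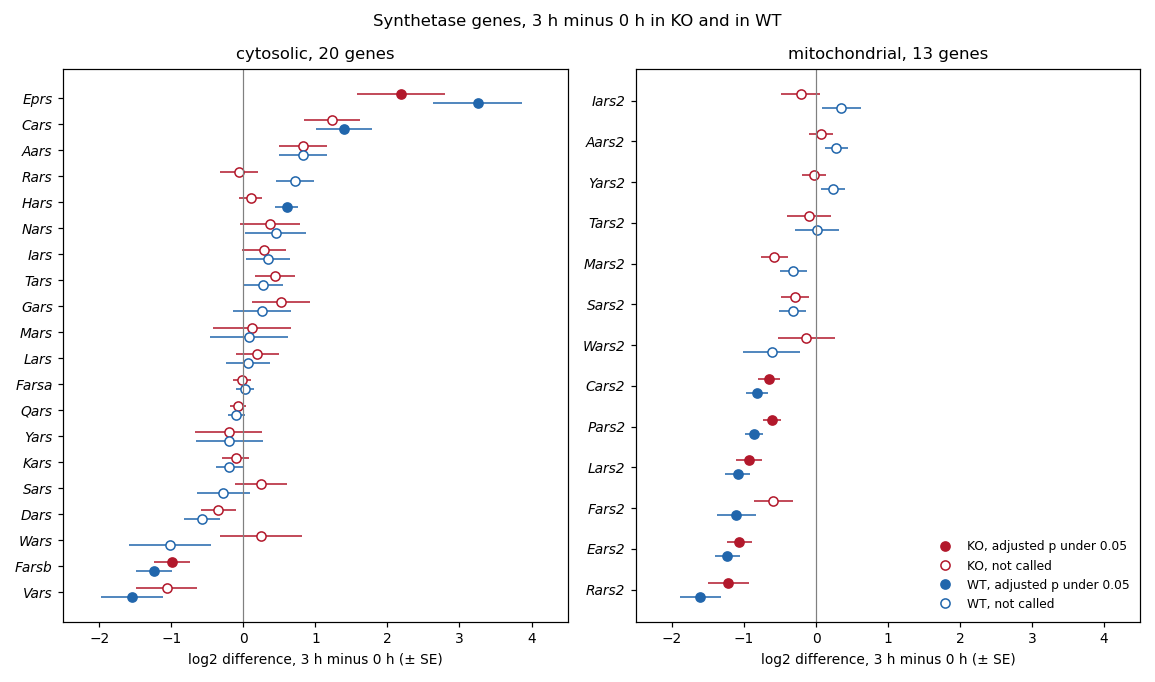
Log2 difference between 3 h and 0 h (horizontal axis, ± SE from the limma fit on 12 arrays) for the 20 cytosolic and 13 mitochondrial synthetase genes, in KO (red, upper point of each pair) and WT (blue, lower point). Filled points have an adjusted p under 0.05; mitochondrial medians are -0.58 in KO and -0.62 in WT, cytosolic medians 0.16 and 0.07.

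Neighbouring steps of tRNA charging were read from lists of their genes. Of 4 genes for amidation and formylation of mitochondrial tRNA, Gatb and Qrsl1 fell in KO (-1.31 ± 0.341 and -0.49 ± 0.150) and in WT (-1.76 and -0.57). They encode subunits of the amidotransferase that completes glutamine tRNA from the product of the Ears2 enzyme. Of 6 proofreading genes, Dtd1, a deacylase of D-aminoacyl-tRNA, fell by 1.35 in KO and 1.69 in WT, and Ptrh2, a peptidyl-tRNA hydrolase, by 0.70 and 0.82. Vars2 was the called member of 3 further mitochondrial synthetase genes outside the family list (-0.87 in KO and -0.86 in WT). The 3 scaffold genes of the multisynthetase complex were not called with all arrays and ran from -0.43 to -0.23 in KO and from -0.52 to -0.13 in WT. Of 9 elongation factor genes 2 fell in each genotype, among them Gfm2, a mitochondrial recycling factor (-0.59 in KO and -0.57 in WT). Of 19 genes of RNA polymerase III and its factors 1 rose and 1 fell in KO (all genes: 7.36% rose, 9.88% fell), and 2 rose and 2 fell in WT (all genes: 13.3% rose, 16.6% fell). Without the 21-week arrays 2 of these 19 rose and 3 fell in KO, and 5 rose and 4 fell in WT (all genes: 20.2% rose and 26.0% fell in KO, 24.2% and 31.6% in WT). Without them 3 amidation and formylation genes, 4 proofreading genes and 1 scaffold gene fell in each genotype, and 1 elongation factor gene rose in each, while 2 fell in KO and 4 in WT.

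Of 23 tested genes of the amino acid stress response, 6 rose and 0 fell in KO (all genes: 7.36% and 9.88%), and 6 rose and 1 fell in WT (all genes: 13.3% and 16.6%). Without the 21-week arrays 8 rose and 5 fell in KO (all genes: 20.2% and 26.0%), and 9 rose and 6 fell in WT (all genes: 24.2% and 31.6%). The share that fell did not exceed that of all genes in either genotype. In WT the differences themselves were the same in both fits (median 0.51), and only the shared estimate of error had changed. Atf4 itself measured 4.75, 5.12 and 5.44 in KO at 3 h and 3.66, 3.89 and 4.38 in KO at 0 h, and 4.91, 4.82 and 4.80 in WT at 3 h and 3.59, 3.66 and 3.62 in WT at 0 h. It rose by 1.13 ± 0.216 in KO (adjusted p = 0.00755) and 1.22 ± 0.216 in WT (0.00288). Sesn2, a leucine sensor, rose by 1.75 in KO and 1.92 in WT, and Slc7a1, a transporter of cationic amino acids, by 1.19 and 1.02. In KO the strongest statistics after activation were those of Ddit3, a stress transcription factor (1.10, adjusted p = 0.00157), Sesn2 and Trib3, a pseudokinase (2.35, adjusted p = 0.00536). Of 6 genes for the kinases and phosphatase subunits of this response, 3 rose in KO and 4 in WT. Ppp1r15b, a phosphatase subunit, had the largest statistic of the rises in both (1.28 in KO and 1.65 in WT), and Eif2ak2, the double-stranded RNA kinase, fell in both (by 0.96 and 0.997 on the log2 scale).

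Macrophage and NK cell markers moved with activation as well. The summed level of the 11 tested markers was 4.98 to 9.85 in KO at 3 h and 26.7 to 40.5 in KO at 0 h, and 1.05 to 1.46 in WT at 3 h and 5.18 to 9.49 in WT at 0 h. Of the 11, 8 fell in KO and 9 in WT, beside 9.88% of all genes that fell in KO and 16.6% in WT. Of the 5 tested NK cell markers 3 fell in KO and 4 in WT, and their summed level was 1.07 to 4.43 in KO at 3 h and 6.07 to 13.8 in KO at 0 h, and 0.81 to 0.84 in WT at 3 h and 3.30 to 3.48 in WT at 0 h. The 10 T cell markers had a median difference of -0.74 in KO and in WT. With all arrays 1 rose and 0 fell in KO, and 0 rose and 1 fell in WT. Without the 21-week arrays 3 rose and 6 fell in KO (all genes: 20.2% and 26.0%), and 1 rose and 6 fell in WT (all genes: 24.2% and 31.6%). The part of any of these lists in the falls of mitochondrial synthetase genes was not tested.

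The 21-week KO arrays differed from the 10-week KO arrays in the cytosolic set far more than in the mitochondrial set. These are single arrays at each time point, so the differences are values without a test. The labels do not say whether they share a mouse, so the time points may not be separate observations. At 3 h the 21-week array exceeded the mean of both 10-week arrays by a median of 1.19 over the 20 cytosolic genes and 0.22 over the 13 mitochondrial genes, with 0.02 over all genes. At 0 h these medians were 0.54, -0.05 and -0.06. At 3 h, 13 of 20 cytosolic genes and 2 of 13 mitochondrial genes exceeded by over 1 on the log2 scale, as did 20.8% of all genes. At 0 h, 4 of 20 cytosolic genes and 0 of 13 mitochondrial genes did, with 13.0% of all genes, so the cytosolic share was nearer the background there.

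Wars, at 3.30 on the 21-week array and 0.74 and 0.62 on the 10-week arrays at 3 h, was 2.62 higher. Mars, the methionyl enzyme of the complex, measured 0.23 on the 21-week array and -2.00 and -1.99 on the others at 3 h, and -0.58 against -1.75 and -1.77 at 0 h. Vars and Nars were higher by 1.83 and 1.79 at 3 h. The 10-week arrays of a time point lay within 0.16 of each other for these 4 genes at 3 h. Eprs went the other way at 3 h, at -6.44 on the 21-week array and -4.59 and -4.14 on the others. Its probe was well above background on 2 of the 3 arrays of KO at 3 h.

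Split by background knowledge, 13 cytosolic genes were listed as ATF4 targets and 7 were not, a list drawn up with earlier results of these data known, so the split is a description and supports nothing. At 3 h, 12 of the 13 exceeded the 10-week mean by over 1 (median 1.47), the exception being Eprs. At 0 h, 4 of the 13 did (median 0.65). Of the other 7, Farsb alone did at 3 h (median 0.13) and 0 did at 0 h (median 0.16). Dars (0.83) and Kars (0.55) came next at 3 h, and Qars, Hars, Farsa and Rars lay between -0.04 and 0.13. Other ATF4 targets were high on the same arrays. Of the 23 tested, 17 exceeded by over 1 at 3 h and 13 at 0 h, beside 20.8% and 13.0% of all genes. Asns, the asparagine synthetase, was chosen after its values were seen. It measured 4.08 on the 21-week array and -1.31 and 0.81 on the 10-week arrays at 3 h, and 2.63 against -0.15 and 0.72 at 0 h. In the mitochondrial set, Rars2 (1.18) and Fars2 (1.06) exceeded by over 1 at 3 h, and Tars2 (-0.94) was the lowest.

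**Figure D3:**
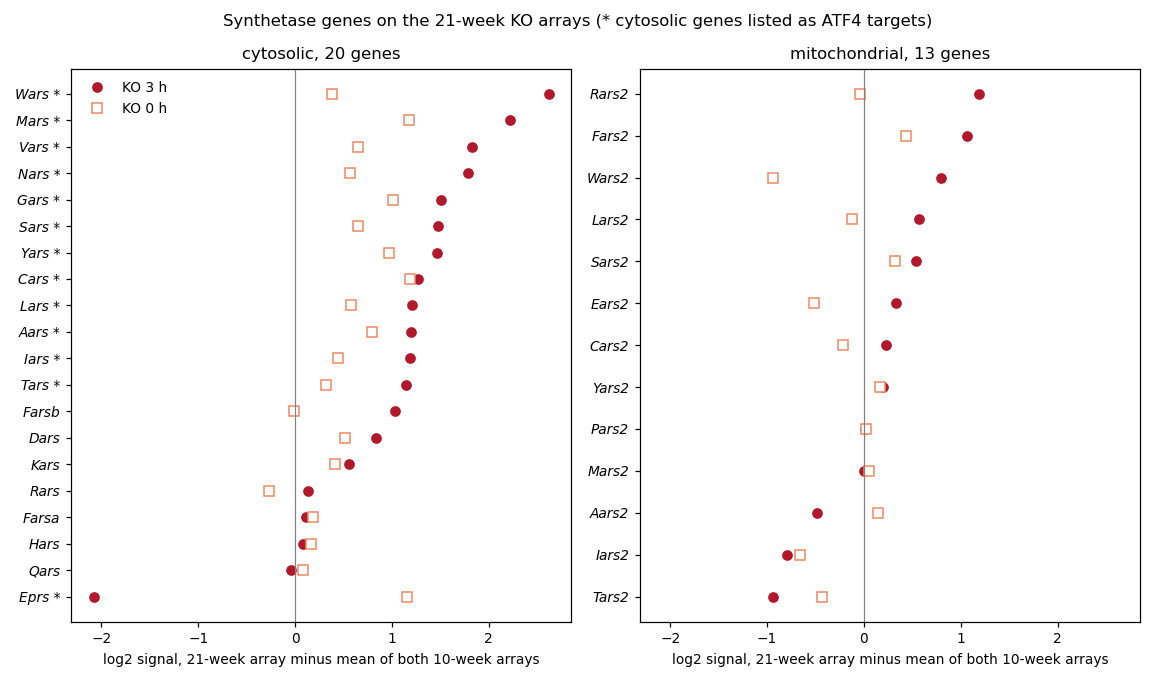
Log2 signal on the 21-week KO array minus the mean of both 10-week KO arrays (horizontal axis) for each synthetase gene, at 3 h (filled circles) and 0 h (open squares). Cytosolic genes with an asterisk are those listed as ATF4 targets; 12 of these 13 lie beyond 1 at 3 h, and 2 of 13 mitochondrial genes do.

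The plasma cell markers were high on the same arrays. All 7 tested markers exceeded the 10-week mean by over 1 at both time points (medians 6.09 at 3 h and 4.21 at 0 h), among them Xbp1, the transcription factor of the secretory programme. The cytosolic class median relative to WT at 0 h was 1.19 and 0.63 on the 21-week arrays, 0.03 to 0.14 on the other 4 KO arrays and -0.02 to 0.09 in WT. For the mitochondrial class it was -0.35 at 3 h and 0.04 at 0 h on the 21-week arrays, and -0.90 and -0.54 at 3 h and 0.21 and 0.07 at 0 h on the 10-week KO arrays. Of 6 listed neutrophil markers 2 were tested, Mpo and Elane, and S100a8, S100a9, Ly6g and Ngp were not. Mpo and Elane also exceeded the 10-week mean by over 1 at each time point (medians 5.10 at 3 h and 4.79 at 0 h). Age and the shares of transcripts from plasma cells, from cells that express Mpo and Elane and from other cell types cannot be told apart on these arrays. The part of any marker list in the cytosolic values was not tested.

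**Figure D4:**
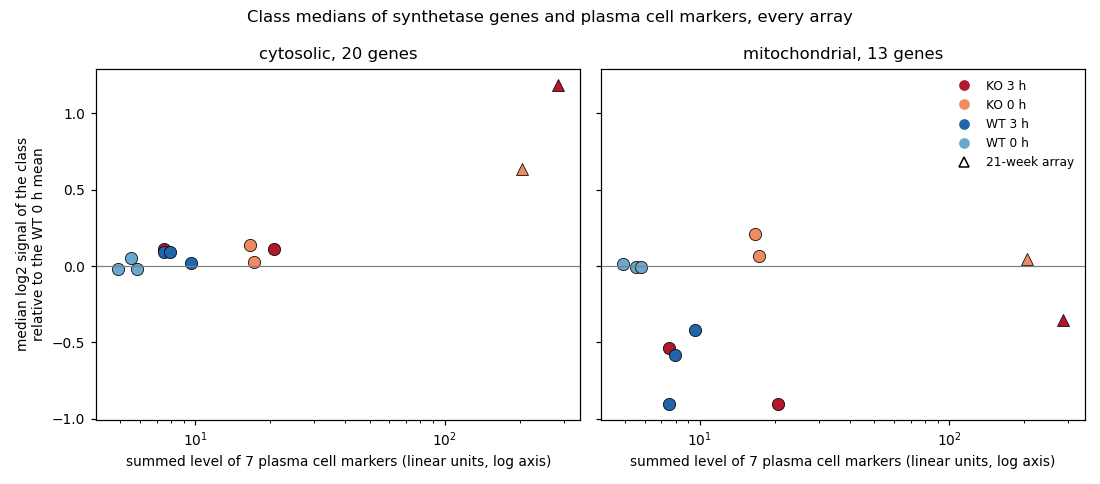
Median log2 signal of the cytosolic (left) and mitochondrial (right) synthetase genes on each array, relative to the WT mean at 0 h, against the summed level of 7 plasma cell markers (log axis). Colours are groups and triangles the 21-week KO arrays, which lie at 286 and 205 with cytosolic medians of 1.19 and 0.63; the other 10 arrays lie at or under 20.7.

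RefSeq promoter windows (GRCm38.p6, from 250 bases before to 50 after the start) were matched by symbol for 26 of the 34 genes, 13 in each class, and none was matched for Cars, Rars, Hars, Lars, Nars, Vars, Wars and Pars2. They were searched on both strands for TGATGNAA, the core of the element that C/EBP-ATF heterodimers bind in ATF4 targets, and for the E-box CACGTG. The core was in the windows of 5 of 13 cytosolic genes and 0 of 13 mitochondrial genes, beside 3.97% of all 32851 windows. The E-box was in those of 4 cytosolic genes and 1 mitochondrial gene (Ears2), beside 7.15% of all windows. The 5 windows with the core are shown because they mark where the classes differ in sequence, and were chosen after the values were seen. Capitals mark either motif on either strand, and no match of one motif overlapped one of the other.

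Aars (chr8:111033592-111033891, plus strand): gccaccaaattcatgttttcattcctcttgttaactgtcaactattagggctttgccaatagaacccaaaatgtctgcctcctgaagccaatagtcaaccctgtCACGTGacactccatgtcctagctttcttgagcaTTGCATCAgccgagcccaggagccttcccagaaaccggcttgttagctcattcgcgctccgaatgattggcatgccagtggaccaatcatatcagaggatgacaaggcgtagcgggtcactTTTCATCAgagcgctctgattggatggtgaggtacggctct
Gars (chr6:55037751-55038050, plus strand): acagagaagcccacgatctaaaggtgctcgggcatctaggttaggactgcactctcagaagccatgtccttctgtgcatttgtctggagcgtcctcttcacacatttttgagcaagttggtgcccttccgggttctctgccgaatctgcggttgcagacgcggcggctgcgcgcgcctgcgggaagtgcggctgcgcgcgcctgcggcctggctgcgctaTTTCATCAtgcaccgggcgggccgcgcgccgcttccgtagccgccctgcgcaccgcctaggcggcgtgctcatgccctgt
Iars (chr13:49681880-49682179, plus strand): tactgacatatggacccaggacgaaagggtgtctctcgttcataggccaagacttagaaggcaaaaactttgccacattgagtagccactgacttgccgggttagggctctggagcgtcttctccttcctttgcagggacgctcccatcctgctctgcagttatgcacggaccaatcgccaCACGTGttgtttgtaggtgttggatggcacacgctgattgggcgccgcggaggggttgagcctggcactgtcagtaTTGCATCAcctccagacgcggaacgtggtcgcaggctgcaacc
Tars (chr15:11399609-11399908, minus strand): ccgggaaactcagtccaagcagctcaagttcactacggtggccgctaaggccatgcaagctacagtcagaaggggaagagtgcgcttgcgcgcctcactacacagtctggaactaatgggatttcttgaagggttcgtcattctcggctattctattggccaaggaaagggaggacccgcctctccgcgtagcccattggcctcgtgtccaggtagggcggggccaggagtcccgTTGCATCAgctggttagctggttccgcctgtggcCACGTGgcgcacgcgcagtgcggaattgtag
Yars (chr4:129189653-129189952, plus strand): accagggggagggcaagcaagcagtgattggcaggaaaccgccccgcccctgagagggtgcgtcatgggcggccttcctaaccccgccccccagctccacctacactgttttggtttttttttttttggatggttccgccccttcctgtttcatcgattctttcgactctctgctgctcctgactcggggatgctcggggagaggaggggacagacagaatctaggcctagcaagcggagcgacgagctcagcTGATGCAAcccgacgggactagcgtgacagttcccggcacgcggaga

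Aars held the core at 2 places and the E-box at 1, and Iars and Tars held each motif at 1 place. The first base of a match was counted with the start on which the window was built as 0. A core lay near that start in all 5, at -30 in Gars, -15 in Tars, 3 in Yars, 7 in Iars and 9 in Aars, whose other copy was at -112. The Aars window lies inside its annotated locus, which begins at 111027778. At 3 h the 21-week array exceeded the 10-week mean by 1.15 to 1.51 in the 5 genes with a core. It did so by -2.08 to 2.22 in the 8 cytosolic genes with a window and no match, of which 3 exceeded by over 1. The cytosolic genes with no window could not be placed in either group. Among them Wars (2.62), Vars (1.83), Nars (1.79), Cars (1.27) and Lars (1.21) exceeded by over 1, and Rars (0.13) and Hars (0.08) did not. A link between core and value was not tested. Aars, Iars, Tars and Gars were called as rising in WT without the 21-week arrays, and Yars was not. Eprs held neither motif in its window, which begins at 185362794 on chromosome 1, inside the annotated locus that begins at 185361417. A match is a description of these letters and not a measured binding site.

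KO at 3 h against WT at 3 h and KO at 0 h against WT at 0 h asked whether CD83 altered the family. No synthetase gene was called at either time, beside 1.45% of all genes at 3 h (1.26% rose, 0.189% fell) and 2.08% at 0 h (1.81% rose, 0.264% fell). The genotypes did not overlap for 3 cytosolic genes higher and 1 lower and 2 mitochondrial genes higher and 1 lower at 3 h (all genes: 11.6% higher, 7.59% lower). At 0 h this held for 7 cytosolic genes higher, and 3 mitochondrial genes higher and 1 lower (all genes: 16.8% higher, 14.9% lower). At an unadjusted p under 0.05 in limma there were 1 of 33 at 3 h and 3 of 33 at 0 h. The cytosolic medians were 0.40 at 3 h and 0.30 at 0 h, with 16 and 17 of 20 genes above 0 (all genes: 53.6% and 47.3%). The mitochondrial medians were 0.11 and 0.07, with all genes at 0.04 and -0.03. The mitochondrial medians turned negative under other scalings, at 3 h with the percentile taken over all probes (-0.10) or no shift between arrays (-0.29), and at 0 h with quantile normalization (-0.01), the percentile over all probes (-0.12) or the deposited table (-0.01). Macrophage markers differed between the genotypes too, with 10 of 11 called higher in KO at 3 h and 11 of 11 at 0 h, and their part in these values was not tested. Without the 21-week arrays the cytosolic medians were -0.00 at 3 h and 0.10 at 0 h, with 10 and 13 of 20 above 0. Over all genes 10697 (3 h) and 9402 (0 h) of 18545 lay above 0 in that fit. No cytosolic gene lay outside -0.20 to 0.27 at 3 h.

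At 3 h the cytosolic genes with the largest differences were Eprs (-0.90 ± 0.612, adjusted p = 0.589) and Wars, which measured 0.74, 0.62 and 3.30 in KO and 0.65, 0.65 and 0.68 in WT (0.89 ± 0.572, adjusted p = 0.578). The difference was -0.20 for Eprs and 0.02 ± 0.106 for Wars without the 21-week arrays. In the mitochondrial set these were Rars2 (0.46 ± 0.281) and Iars2 (-0.46 ± 0.272), at 0.07 and -0.19 without the 21-week arrays. At 0 h Mars measured -1.75, -1.77 and -0.58 in KO and -2.07, -2.10 and -2.13 in WT (0.73 ± 0.543, adjusted p = 0.566), so KO lay above WT on every array. The Mars difference was 0.34 ± 0.0853 (adjusted p = 0.0565) without the 21-week arrays. Rars, the arginyl enzyme of the complex, differed by 0.66 ± 0.262 (adjusted p = 0.262), Yars2 by 0.37 ± 0.169 and Pars2 by -0.36 ± 0.130. Pars2 measured -1.29, -1.28 and -1.26 in KO at 0 h and -0.82, -0.99 and -0.96 in WT at 0 h, below WT on every array, with an adjusted p of 0.225. Without the 21-week arrays Wars was lower in KO at 0 h (-0.50 ± 0.106, adjusted p = 0.0358), the single synthetase gene called between genotypes there. The background without these arrays was 1.39% of all genes that rose and 0.615% that fell at 3 h, and 4.72% and 1.96% at 0 h.

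**Figure D5:**
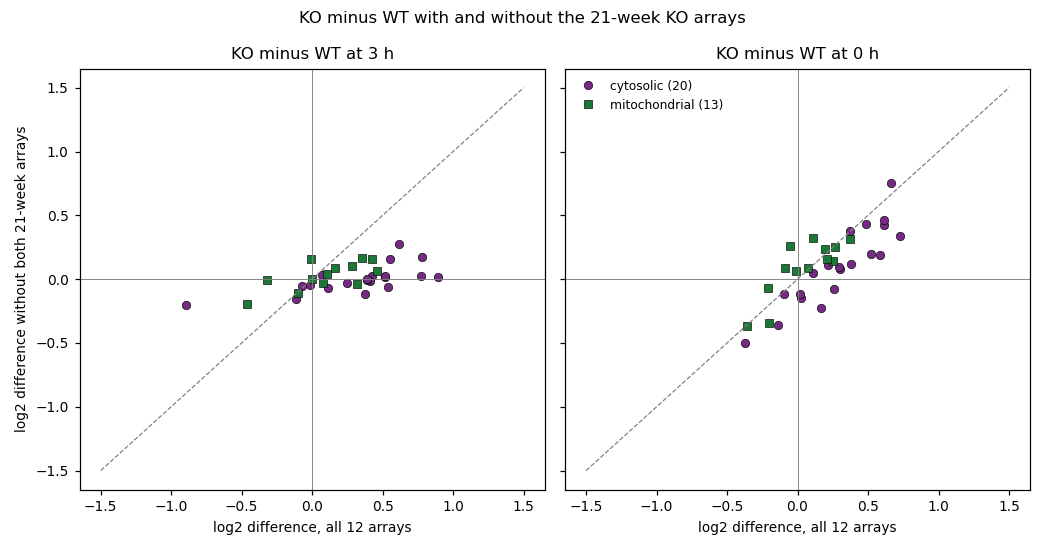
KO minus WT log2 difference of each synthetase gene at 3 h (left) and 0 h (right), with all 12 arrays (horizontal axis) and without both 21-week KO arrays (vertical axis). Points on the dashed line did not move; at 3 h the cytosolic genes run from -0.90 to 0.89 with all arrays and from -0.20 to 0.27 without.

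Activation in KO minus activation in WT, the interaction of the fit, was called for 0 of 33 synthetase genes and for 0% of all genes in limma, with 0 of the 33 at an unadjusted p under 0.05 and 691 of 18545 genes. The largest values were those of Wars (1.26 ± 0.809), Eprs (-1.06 ± 0.865), Iars2 (-0.57 ± 0.384) and Fars2 (0.52 ± 0.383), all with an adjusted p of 1.00. With the 21-week arrays left out these were 0.52 for Wars, 0.02 for Eprs, -0.52 for Iars2 and 0.31 for Fars2, the largest was that of Rars (-0.91 ± 0.421, adjusted p = 0.481), and 0 of 33 were called, with 3 at an unadjusted p under 0.05. The class medians were 0.03 (cytosolic), 0.16 (mitochondrial) and 0.06 (all genes) with all arrays, and -0.09, -0.04 and 0.03 without the 21-week arrays.

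All 43 probes of the family matched the same gene in the reference by accession or symbol. The 33 tested genes had a probe well above background on all 12 arrays, apart from Eprs, whose probe was so on 2 arrays in KO at 3 h, 1 in KO at 0 h, 3 in WT at 3 h and 0 in WT at 0 h. Where a gene had several tested probes, the brightest stood for it, and others disagreed in sign in at least 1 comparison for Cars2, Iars2, Tars2, Pars2 and Farsa. The other Cars2 probe (chromosome 8, 11547757 to 11547816) differed by 0.32 ± 0.211 in KO and -0.03 in WT between 3 h and 0 h, beside -0.65 and -0.82 for the probe used (chromosome 8, 11516152 to 11516211), so the Cars2 falls rest on 1 probe. The other Iars2 probe (chromosome 1, 187139773 to 187139832) rose by 1.00 ± 0.242 in WT (adjusted p = 0.0123 over all probes), beside 0.35 for the probe used (chromosome 1, 187111041 to 187111948). Tars2, Pars2 and Farsa probes differed in sign only where no probe was called.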

How the data were processed

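RNA was measured on 12 one-colour Agilent mouse arrays (mm9 design). The scanner files hold each spot's processed intensity, background-corrected by Agilent Feature Extraction 10.7.3.1 per the file headers (version 11 per the submitters' processing notes, which also name Partek). The deposited log2 value table, which has the same distribution on every array, was an alternative. Per the labels' protocols, 20 ng of RNA entered amplification for 1 sample, of unstated genotype, and 40 ng for the others.

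Spots of a probe were averaged, log2 signals were shifted by each array's 75th percentile, taken over the 19863 probes that the software detected on every one of the 12 arrays, and the brightest filtered probe stood for a gene. Summed marker levels add these signals on the linear scale. The 4 groups were fitted together in limma 3.58.1 (R 4.3.3; 8 residual degrees of freedom), p-values were adjusted by Benjamini-Hochberg across 18545 genes, and the threshold was 0.05. The procedure was tested on simulated data. The number of arrays limits the precision.

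Members and lists were chosen with earlier results of these data known. Per-array values were given, by comparison, for up to 6 cytosolic and 4 mitochondrial called genes with the largest differences, or for the 2 largest of a class with fewer than 2 calls, and of pathway lists up to 3 called genes with the largest statistic. Genes named for the 21-week arrays and in the fits without them lie outside this rule and were chosen after their values were seen. Alternatives covered scaling, background, filter, probe choice, samples, array weights and left-out arrays.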

Additional observations from a re-analysis of the deposited data

Results flagged for a closer look

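Nars2, the mitochondrial asparaginyl enzyme and the 1 listed gene that was not tested, was well above background on 1 of the 12 arrays, KO at 0 h replicate 2, at -6.16 on the log2 scale. On the other 11 arrays its probe lay between -9.70 and -7.79.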

How the results depend on the processing

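No paired analysis was possible because the replicate numbers follow accession order and pair no arrays. The tests of 3 h against 0 h therefore ignore any mouse shared between the time points. Counts of called cytosolic genes were 0 in KO at 3 h against 0 h with no filter on dim probes, with only the arrays compared and within the slide that holds both groups, 5 with array quality weights and 8 without both 21-week arrays. For WT at 3 h against 0 h they were 13 with only the arrays compared, 15 with array weights and 13 without the 21-week arrays. For KO against WT at 0 h they were 1 with array weights and 1 without the 21-week arrays. Counts of called mitochondrial genes were 3 in KO at 3 h against 0 h with no filter and when a gene's probes were averaged, and 0 with only the arrays compared or within the slide. They were 11 in WT at 3 h against 0 h and 1 for KO against WT at 0 h with array weights. Leaving out 1 array gave 0 to 5 cytosolic calls in KO (5 without KO at 3 h replicate 3) and 2 to 8 in WT (2 without any 1 WT array, 8 without KO at 3 h replicate 3), and 3 to 7 mitochondrial calls in KO (3 without KO at 3 h replicate 2) and 6 to 6 in WT. The counts for the other 6 results stayed at 0 to 0. Wars in KO at 3 h against 0 h was 0.25 with all arrays, -0.50 without both 21-week arrays and -0.62 without KO at 3 h replicate 3, and was at most 0.71 when another array was left out. With no shift between arrays the median of all genes was -0.34 in KO at 3 h against 0 h, where the cytosolic median was -0.14, and -0.36 for KO against WT at 3 h. With the percentile over all probes it was -0.17 for KO against WT at 3 h and -0.22 at 0 h. The cause of these changes was not tested. Dim signal limits Eprs and Nars2.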
